A study of Mus musculus with 4 samples.

Results

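The TRAV10 family of TCRα variable segments has 3 copies in the mouse, TRAV10, TRAV10D and TRAV10N, which are 3 of the 97 TRAV segments seen in these data. Its members were the clones whose best listed V segment, without the allele, was one of these names. They came to 7337 clones with 32634 reads. TCR SMART-seq libraries of splenic CD4 T cells were available for 2 wild type (WT) and 2 Tet2/3 DKO samples, from animals about 25 days old. The Tet2/3 DKO mice lack Tet2 in the germline, and their floxed Tet3 is deleted by CD4Cre, which acts from the double positive stage of the thymus, so the cells lost TET2 before and TET3 during the stage at which TCRα is rearranged. The sort kept live cells that were positive for CD4 and TCRβ, lacked CD25 and did not bind the αGalCer-loaded CD1d tetramer that marks iNKT cells. The labels number the libraries of a genotype as BR, the paper's term for biological replicate, without naming the animals. The p-values therefore measure the spread between these libraries. The tables hold TCR chains alone, so CD4 and the other markers of the sort could not be checked in them.

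TET2 and TET3 are enzymes that oxidise 5-methylcytosine in DNA. A TCRα chain is made by joining 1 V segment to 1 J segment in double positive thymocytes, and the same allele can rearrange again and again, each time with a V segment farther upstream and a J segment farther downstream. TRAJ segments are numbered from the constant gene backwards, so a low TRAJ number means a join that lies far from the V segments. In C57BL/6 mice the middle of the V region has been duplicated more than once, and the letters D and N at the end of a name mark the added copies.

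The part of the V segment that runs from framework region 1 (FR1) to FR3 is shown for each copy, because the copies can be told apart only at the bases in capitals. It is the most abundant sequence in the reads of that copy, 267 bases long and written 5′ to 3′.
TRAV10: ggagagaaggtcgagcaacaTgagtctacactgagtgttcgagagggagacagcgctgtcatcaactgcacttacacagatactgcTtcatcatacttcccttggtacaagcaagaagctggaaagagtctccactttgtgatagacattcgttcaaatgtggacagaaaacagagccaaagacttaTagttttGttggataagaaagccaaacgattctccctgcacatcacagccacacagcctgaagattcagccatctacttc
TRAV10D: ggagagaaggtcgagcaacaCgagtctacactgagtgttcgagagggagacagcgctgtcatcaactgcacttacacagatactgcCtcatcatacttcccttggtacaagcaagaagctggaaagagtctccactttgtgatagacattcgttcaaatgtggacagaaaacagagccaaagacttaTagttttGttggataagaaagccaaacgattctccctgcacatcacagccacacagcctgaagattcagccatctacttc
TRAV10N: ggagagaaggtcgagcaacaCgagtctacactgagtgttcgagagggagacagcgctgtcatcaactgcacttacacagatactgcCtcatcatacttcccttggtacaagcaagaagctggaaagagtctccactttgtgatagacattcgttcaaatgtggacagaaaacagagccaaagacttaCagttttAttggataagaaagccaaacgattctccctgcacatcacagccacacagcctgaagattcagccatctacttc
Counted from 1 at the first base of FR1, TRAV10 and TRAV10D differed by T21C in FR1 and T87C in CDR1, and TRAV10N had in addition T188C and G195A in FR3, where the first letter is the base of TRAV10. T21C, T87C and G195A leave the amino acid as it is, so TRAV10 and TRAV10D encode the same 89 residues over this stretch. T188C turns an isoleucine codon into a threonine codon, the 1 residue by which TRAV10N differs from the others.

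The 4 positions separated the copies in nearly all reads. Among clones that covered all 4, the bases shown were found in 99.9% of TRAV10 reads, in 99.8% of TRAV10D reads and in 99.96% of TRAV10N reads. None of the 7337 clones had a tie for its best V segment, whereas ties made up 32.2% to 37.1% of the reads of all TRAV segments in the 4 libraries. By these 4 bases TRAV10D has the start of TRAV10N and the end of TRAV10. A PCR hybrid of the other copies would carry the same bases, and its part in the TRAV10D reads was not tested. The opposite combination, with the start of TRAV10 and the end of TRAV10N, was found in 5 clones of 1 read each, against 989 clones and 3784 reads with the TRAV10D bases.

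In the RefSeq annotation of the mm10 build (GRCm38.p6) all copies lie on chromosome 14, in 3 repeats of the same order of genes. Trav10d is at chr14:52810997-52811496, Trav10n at chr14:53122114-53122611 and Trav10 at chr14:53505790-53506286. Each span holds a leader exon, an intron and the V exon. They lie 1344 kb, 1032 kb and 649 kb from Traj61, the J segment nearest to them, so TRAV10D is the most distant copy, TRAV10N the middle one and TRAV10 the nearest. Each is preceded by its own copy of Trav6-5 and followed by its own copies of Trav6-6 and Trav11, the last of which encodes the invariant chain of iNKT cells.

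TRAV10 was the most used copy, TRAV10N came next and TRAV10D was the least used, in each library. TRAV10 held 2.30% and 2.46% of TCRα reads in WT, and 2.50% and 2.14% in Tet2/3 DKO. TRAV10N held 0.945% and 0.935% in WT, with 0.892% and 1.05% in Tet2/3 DKO. TRAV10D held 0.385% and 0.504% in WT, with 0.477% and 0.407% in Tet2/3 DKO. The WT and Tet2/3 DKO values overlapped for each copy, while the ranges of the 3 copies over the libraries did not overlap. The depth was 172506 and 216457 TCRα reads in WT, with 195046 and 287799 in Tet2/3 DKO, and the widest 95% Wilson confidence interval relative to its share, that of TRAV10D in WT replicate 1, ran from 0.357% to 0.416%. Reads are PCR copies without molecular identifiers, so these intervals cover counting error only. In such bulk libraries, fewer cells with a segment and less of its RNA per cell cannot be told apart.

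**Figure D1:**
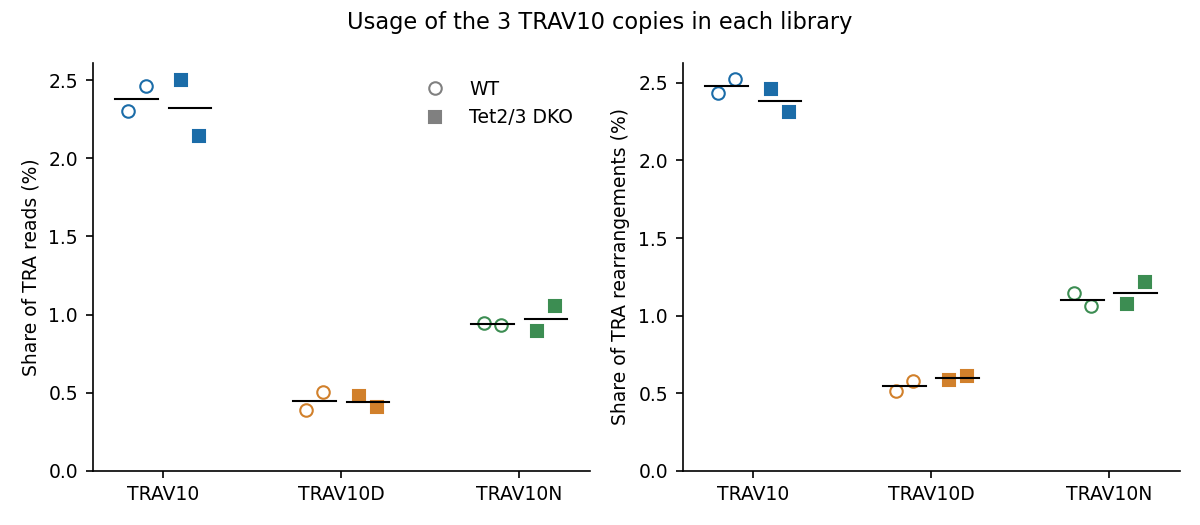
Share of TCRα reads (left, percent) and of distinct TCRα rearrangements (right, percent) of each copy, with 1 point per library, open circles for WT, filled squares for Tet2/3 DKO and a line at the mean of each genotype. On the left, TRAV10 lies between 2.14% and 2.50%, TRAV10N between 0.892% and 1.05% and TRAV10D between 0.385% and 0.504%.

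No copy passed the test between genotypes. With the quasi-likelihood test of edgeR on reads over 101 V segments, the log2 fold of Tet2/3 DKO over WT was -0.04 for TRAV10 (SE 0.16, adjusted p = 0.972), -0.01 for TRAV10D (SE 0.22, adjusted p = 0.979) and 0.05 for TRAV10N (SE 0.17, adjusted p = 0.972). Among all 101 segments the number called was 0 (0%), both here and with DESeq2, and 3 segments reached an unadjusted p under 0.05. Without Tet2/3 DKO replicate 1 the log2 fold was -0.15 for TRAV10, -0.13 for TRAV10D and 0.16 for TRAV10N. That fit leaves 1 Tet2/3 DKO library, so its spread comes from the WT libraries alone and its calls are not read. The family as a whole held 3.63% and 3.90% of TCRα reads in WT, with 3.87% and 3.60% in Tet2/3 DKO, and the genotypes overlapped (exact two-sided permutation test, p = 0.667). With 2 libraries per genotype that test cannot give a p below 0.333.

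By reads, the split of the family among its copies also overlapped between genotypes. TRAV10 made up 63.4% and 63.1% of the reads of the family in WT, with 64.7% and 59.5% in Tet2/3 DKO, TRAV10N 23.0% to 29.2% and TRAV10D 10.6% to 12.9% over the 4 libraries. Counted as distinct rearrangements, that is, each combination of V segment, J segment and CDR3 nucleotide sequence once per library, the order was the same, with 3966 for TRAV10, 1836 for TRAV10N and 937 for TRAV10D summed over the libraries. By this count TRAV10D made up 12.5% and 13.8% of the family in WT, with 14.2% and 14.7% in Tet2/3 DKO, so that here the genotypes did not overlap (exact permutation p = 0.333, the smallest possible), while those of TRAV10 and TRAV10N did. In Tet2/3 DKO replicate 2, the library with the lowest share of TRAV10 and the highest of TRAV10N, single clones weighed most. Its largest TRAV10 clone held 867 reads, 14.1% of the reads of TRAV10 there, and its largest TRAV10N clone 226 reads, 7.46% of that copy. In the other libraries the largest TRAV10 clone held 1.43% to 1.86% of the reads of the copy.

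The copies also differed in the J segments they had joined. Averaged by library, the TRAJ number of the distinct rearrangements of TRAV10 was 30.6 and 30.4 in WT, with 30.5 and 30.0 in Tet2/3 DKO. For TRAV10D it was 28.4 and 29.0 in WT, with 28.6 and 26.8 in Tet2/3 DKO. For TRAV10N it was 24.1 and 23.9 in WT, with 23.8 and 22.9 in Tet2/3 DKO. The ranges of the 3 copies did not overlap, with TRAV10N the lowest and TRAV10 the highest. All TCRα rearrangements together had 28.9 to 29.5. The difference in the mean TRAJ number was -6.71 for TRAV10N minus TRAV10 (SD 0.27, n = 4 libraries), -2.15 for TRAV10D minus TRAV10 (SD 0.72) and -4.56 for TRAV10N minus TRAV10D (SD 0.51). Each difference had the same sign in 4 of 4 libraries, and the exact two-sided permutation test of the signs gave p = 0.125 for each of the 3 pairs (adjusted p = 0.125), the smallest value that 4 libraries allow.

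The copies were also compared by position within the J cluster. TRAJ20 and lower numbers made up 17.8% of TRAV10 rearrangements (SD 0.71), 27.1% of TRAV10D (SD 2.33) and 41.7% of TRAV10N (SD 2.71, n = 4 libraries each). TRAJ21 to TRAJ40, in the middle of the cluster, made up 63.7% of TRAV10 (SD 0.71), 53.5% of TRAV10D (SD 3.46) and 46.0% of TRAV10N (SD 1.67). At the other end, TRAJ41 and higher numbers made up 18.5% of TRAV10, 19.4% of TRAV10D and 12.2% of TRAV10N. The share of TRAJ20 and lower was above that of TRAV10 in 4 of 4 libraries for both added copies. The share of TRAJ41 and higher in TRAV10D was above that of TRAV10 in 2 libraries and below it in 2.

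**Figure D2:**
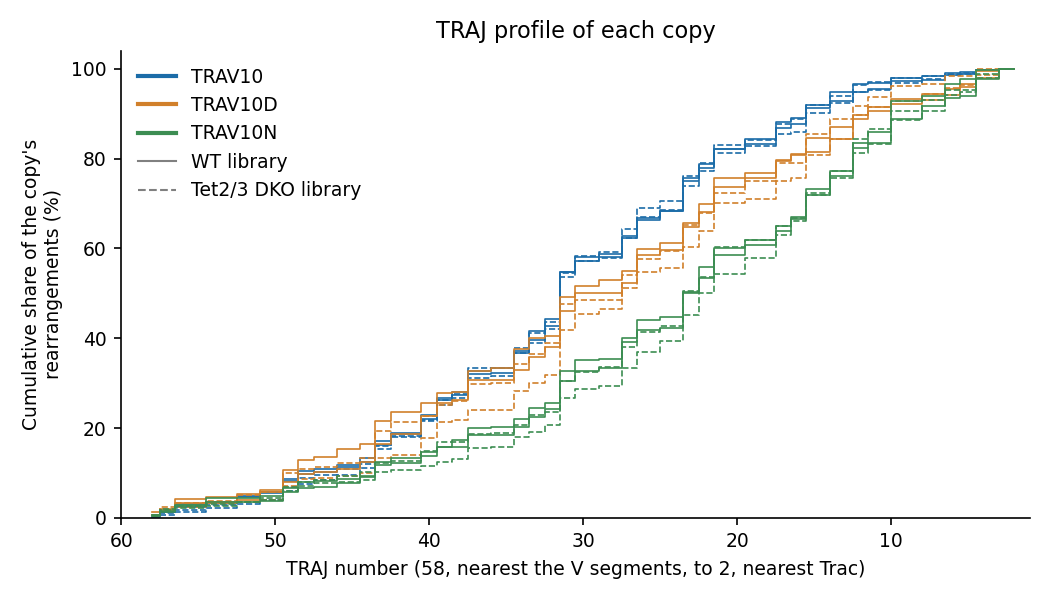
Cumulative share of the distinct rearrangements of each copy (percent) from TRAJ58, on the left, to TRAJ2, next to the constant gene, on the right, with 1 line per library, solid for WT and dashed for Tet2/3 DKO. The 4 lines of TRAV10N lie below all others from TRAJ43 to TRAJ11, beyond which they meet those of TRAV10D, and 41.7% of its rearrangements use TRAJ20 or lower, against 17.8% for TRAV10.

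Single TRAJ segments showed the same gradient. Over the 43 TRAJ segments with at least 10 rearrangements in both copies together, 20 passed the threshold of edgeR between TRAV10N and TRAV10 with the library as a block (46.5%), 11 of them higher and 9 lower in TRAV10N. Those higher in TRAV10N lay between TRAJ2 and TRAJ22 and included 10 of the 13 TRAJ segments tested up to TRAJ20, while those lower lay between TRAJ31 and TRAJ43. TRAJ12 took 6.12% and 6.07% of TRAV10N rearrangements in WT, with 5.45% and 7.16% in Tet2/3 DKO, against 1.80%, 2.07%, 2.38% and 2.54% of TRAV10 in the same order, a log2 fold of 1.48 (SE 0.20, edgeR adjusted p = 6.4e-10). TRAJ31 went the other way, with 10.5% to 11.97% of TRAV10 rearrangements and 6.08% to 6.97% of those of TRAV10N, a log2 fold of -0.80 (SE 0.09, edgeR adjusted p = 1.74e-07). The groups of values did not overlap for TRAJ12 or TRAJ31. Between TRAV10D and TRAV10, 2 of 43 TRAJ segments passed (4.65%), TRAJ11 and TRAJ4, both higher in TRAV10D, and between TRAV10N and TRAV10D 2 of 42 passed (4.76%), TRAJ9 and TRAJ16, both higher in TRAV10N. DESeq2 called 14 for TRAV10N against TRAV10 and 0 for each of the other pairs. Without WT replicate 1 or Tet2/3 DKO replicate 2 edgeR called 0 for TRAV10D against TRAV10, and without Tet2/3 DKO replicate 1 it called 5. For TRAV10N against TRAV10D it called 0 without Tet2/3 DKO replicate 2 and 1 without WT replicate 1. TRAV10D has the fewest rearrangements, and how far its depth limited the last counts was not tested.

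**Figure D3:**
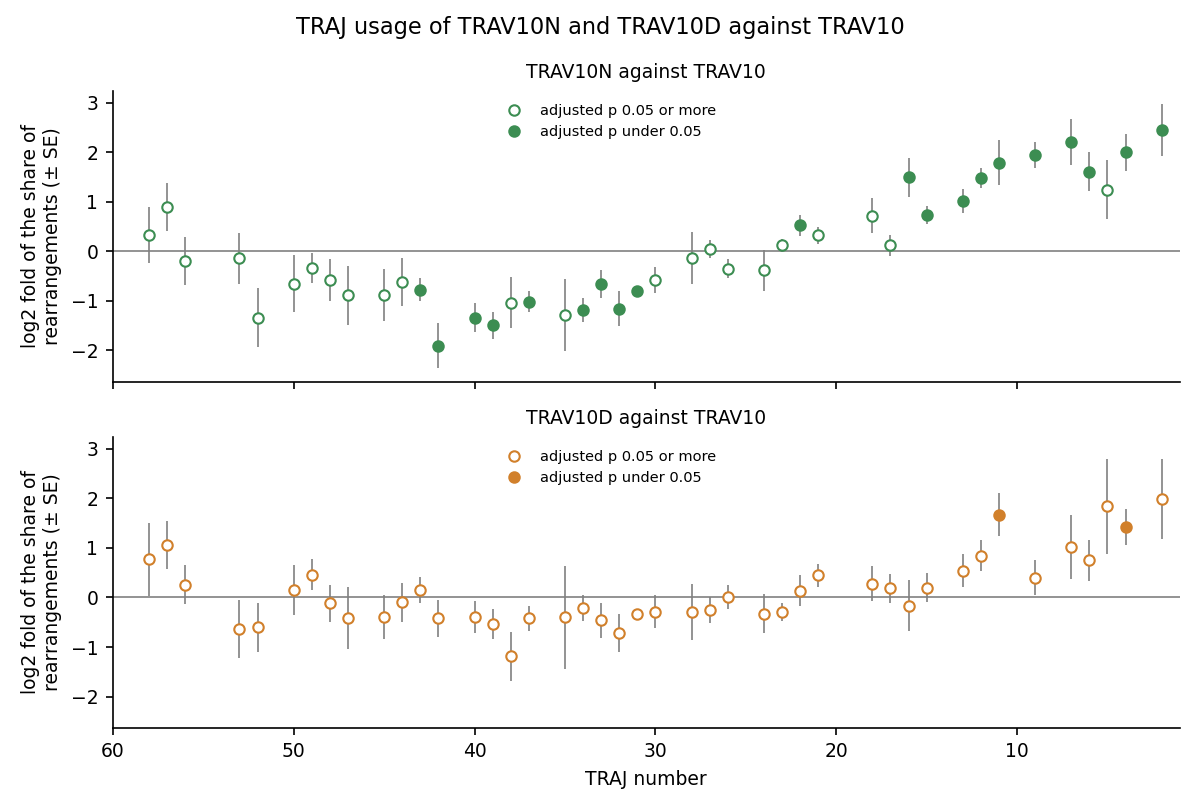
Log2 fold of the share of rearrangements for each TRAJ segment (points, with the SE of edgeR), for TRAV10N against TRAV10 (top) and TRAV10D against TRAV10 (bottom), by TRAJ number, with filled points at an adjusted p under 0.05. In the top panel the 9 filled points below 0 lie between TRAJ31 and TRAJ43 and the 11 above 0 between TRAJ2 and TRAJ22, and in the bottom panel 2 points are filled.

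The most used J segments were shared in part. TRAJ31 was the most used partner of TRAV10, at 11.3% (SD 0.64, n = 4 libraries), followed by TRAJ23 at 6.25% (SD 0.99) and TRAJ37 at 4.89% (SD 0.58). TRAV10D also used TRAJ31 most, at 8.85% (SD 0.85), then TRAJ21 at 5.43% (SD 0.62) and TRAJ23 at 5.04% (SD 0.60). For TRAV10N, TRAJ23 at 6.73% (SD 1.23), TRAJ31 at 6.50% (SD 0.46) and TRAJ12 at 6.20% (SD 0.71) led, and these differed by less than the spread between libraries. TRAJ31 and TRAJ23 were also the leading J segments of all TCRα rearrangements, at 6.92% and 5.14%.

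The mean TRAJ number did not follow the distance to the J cluster over the whole family, because the most distant copy, TRAV10D, lay between the other copies. The segments next to the copies had the same order of means. TRAV6-5 and TRAV6-6, on both sides of TRAV10, had mean TRAJ numbers of 28.8 (SD 0.22) and 29.9 (SD 0.58). TRAV6N-5 and TRAV6N-6, on both sides of TRAV10N, had 22.0 (SD 0.54) and 22.6 (SD 1.22), and TRAV6D-5, beside TRAV10D, had 28.1 (SD 1.05). TRAV6D-5 lay below TRAV6-5 by less than its own SD. TRAV6D-6, on the other side of TRAV10D, was not among the segments with at least 100 rearrangements. How many reads of TRAV6-6 and TRAV6N-6 were tied with another V segment is not given here. Each copy lay nearer to the neighbours that have a value here than to the other copies of the family. Among 85 V segments with at least 100 rearrangements, TRAV10 ranked 27, TRAV10D 32 and TRAV10N 64 from the highest mean TRAJ number.

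**Figure D4:**
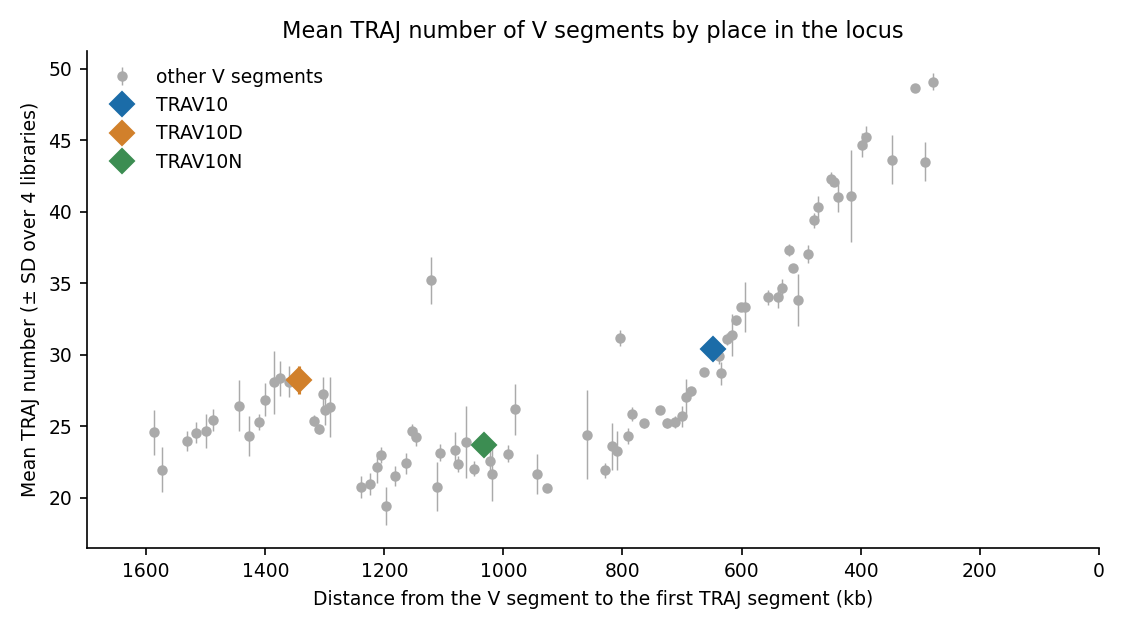
Mean TRAJ number of 85 V segments (points, with the SD over 4 libraries) against their distance to the first TRAJ segment in kb, with the J cluster to the right and the TRAV10 copies as coloured diamonds. The most distant of them, TRAV1 at 1726 kb, lies beyond the end of the axis and is not seen. TRAV10 lies on the slope at 649 kb and 30.4, TRAV10N in the trough at 1032 kb and 23.7, and TRAV10D on the second rise at 1344 kb and 28.2.

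Other segments with a plain, a D and an N copy are given beside the family as a description and not as a test. Of 5 other such sets with at least 100 rearrangements of each copy, the N copy had a lower mean TRAJ number than the plain copy in 5, and a lower one than the D copy in 4. In the TRAV6-5 set the means were 28.8 for the plain, 28.1 for the D and 22.0 for the N copy, and in the TRAV13-1 set they were 32.4, 27.3 and 23.1. The full order of the TRAV10 family, with the plain copy highest and the N copy lowest, was found in 3 of the 5 sets. In the TRAV8-2 set the D copy was lowest, at 20.8 against 23.3 for the N copy, and in the TRAV7-4 set the D copy was above the plain copy, at 28.1 against 27.0. The TRAV6-5 set counts among the 3, but its plain and D copies (SD 0.22 and 1.05) differed by less than the SD of the D copy. The same held for the plain and D copies of the TRAV7-4 set (SD 1.32 and 2.21). The plain copy was the most used in 3 of the 5 sets, as it was for TRAV10. The TRAV12-2 set counts among the 3 with the full order and the 4 with the N copy below the D copy, but its N and D copies, at 20.6 (SD 0.25) and 20.7 (SD 0.74), differed by less than the spread between libraries. In that set 99.1% of the reads given to the D copy were tied with another V segment, a limit that the TRAV10 copies do not share.

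Rearrangements whose CDR3 had a shifted frame or a stop codon are together called out of frame here, and all others in frame. Out-of-frame rearrangements make no receptor and so are not chosen by selection on the chain they encode. They had the same order on average. For TRAV10 their mean TRAJ number came to 30.0 and 30.2 in WT, with 31.3 and 27.7 in Tet2/3 DKO. For TRAV10N it was 20.9 and 25.2 in WT, with 23.1 and 20.2 in Tet2/3 DKO. TRAV10N was below TRAV10 in 4 of 4 libraries, with a mean difference of -7.44 (SD 1.77, exact permutation p = 0.125). For TRAV10D, with 11 to 20 out-of-frame rearrangements per library, the mean ran from 25.7 to 32.3 and lay below that of TRAV10 in 3 of 4 libraries, so that its place was not settled at this depth.

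Between genotypes, the mean TRAJ number was lower in Tet2/3 DKO by 0.66 for TRAV10N, from 24.0 (SD 0.10) in WT to 23.3 (SD 0.63), with no overlap of the libraries. The exact permutation test gave p = 0.333, the smallest this design allows, and 0.667 after adjustment over the 3 copies. TRAV10 and TRAV10D were lower by 0.25 and 0.98, with overlap (exact permutation p = 0.667 for each). All TCRα rearrangements were also lower in Tet2/3 DKO without overlap, by 0.31, from 29.4 to 29.1 (exact permutation p = 0.333), so that the lack of overlap was not particular to TRAV10N. Weighted by reads, the difference was -0.86 for TRAV10N, with overlap (exact permutation p = 0.667), and -2.13 for TRAV10D, without overlap (exact permutation p = 0.333). Tet2/3 DKO replicate 2 was the lowest library for each copy, and also for all TCRα rearrangements, at 28.9 against 29.3 to 29.5 in the others. Without it, the difference was -0.21 for TRAV10N and -0.078 for TRAV10D, and that for TRAV10 turned to 0.03. Without Tet2/3 DKO replicate 1 the differences were -1.10 for TRAV10N, -1.88 for TRAV10D and -0.54 for TRAV10. The gap from TRAV10N to TRAV10 differed by -0.40 between Tet2/3 DKO and WT (exact permutation p = 0.333).

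V-J pairs gave no call either. Of 2274 V-J pairs tested on distinct rearrangements with edgeR, the number called was 0 (0%), and 101 reached an unadjusted p under 0.05 (4.44%). Of the 112 pairs with a TRAV10 copy, 0 were called and 5 reached an unadjusted p under 0.05 (4.46%), close to the share over all pairs, and DESeq2 gave 0 below that value. The median log2 fold of Tet2/3 DKO over WT was 0.03 over the 112 pairs and 0.00 over all pairs. The 5 pairs, named because they are so few and not by the rule for named segments, were TRAV10D with TRAJ15 and TRAJ27, TRAV10N with TRAJ24, and TRAV10 with TRAJ56 and TRAJ23. TRAV10D with TRAJ15 had 7 and 1 rearrangements in WT, with 15 and 14 in Tet2/3 DKO, and its edgeR adjusted p was 0.878.

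CDR3 regions of the copies were nearly equal in length. The mean length of in-frame CDR3s, counted from the conserved cysteine to the conserved phenylalanine or tryptophan, was 13.26 and 13.28 amino acids for TRAV10 in WT, with 13.28 and 13.35 in Tet2/3 DKO. TRAV10D had 13.33 and 13.35 in WT, with 13.37 and 13.40 in Tet2/3 DKO, and TRAV10N had 13.31 and 13.34 in WT, with 13.36 and 13.37 in Tet2/3 DKO. TRAV10 was the shortest in 4 of 4 libraries, by 0.054 amino acids against TRAV10N (SD 0.026) and by 0.072 against TRAV10D (SD 0.020, exact permutation p = 0.125 each). Weighted by reads, the difference from TRAV10N was 0.035 (exact permutation p = 0.75), and in Tet2/3 DKO replicate 2 TRAV10N was then shorter than TRAV10, at 13.07 against 13.28. CDR3s of 13 amino acids were the most frequent, at 33.6% of TRAV10, 34.9% of TRAV10D and 36.2% of TRAV10N. The Tet2/3 DKO libraries had longer means, by 0.041 for TRAV10D and 0.034 for TRAV10N without overlap (exact permutation p = 0.333 each, 0.5 adjusted) and by 0.043 for TRAV10 with overlap (exact permutation p = 0.667). All 3 differences stayed above 0 when any 1 library was left out, but their sizes moved. That of TRAV10 was 0.0056 without Tet2/3 DKO replicate 2 and 0.080 without Tet2/3 DKO replicate 1, and for TRAV10N the difference was 0.020 without WT replicate 1. Weighted by reads, the differences were 0.130 for TRAV10D and 0.090 for TRAV10, without overlap (exact permutation p = 0.333 each), and -0.11 for TRAV10N, with overlap. With at least 2 reads per clone that of TRAV10D was 0.028, with overlap (exact permutation p = 1). All TCRα rearrangements differed in the same direction by 0.069 without overlap, with 13.40 in WT and 13.47 in Tet2/3 DKO (exact permutation p = 0.333). The lack of overlap was thus not particular to TRAV10D and TRAV10N.

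As above, in frame means that the CDR3 had neither a shifted frame nor a stop codon. The share of rearrangements in frame was 89.6% and 92.0% for TRAV10 in WT, with 91.4% and 91.7% in Tet2/3 DKO. It was 93.8% and 91.7% in WT, with 93.7% and 93.6% in Tet2/3 DKO for TRAV10D. For TRAV10N it was 90.3% and 92.8% in WT, with 93.2% and 91.9% in Tet2/3 DKO. The ranges of the copies overlapped, and so did the genotypes of each copy (exact permutation p of 0.667 to 1). Weighted by reads, TRAV10D was lower in Tet2/3 DKO without overlap, with 94.3% and 94.5% in WT against 93.1% and 94.1% (exact permutation p = 0.333), so that its direction turned. Between copies, TRAV10N was 0.90 percentage points above TRAV10 (SD 0.67, 4 of 4 libraries, exact permutation p = 0.125, 0.375 adjusted over the 3 pairs), and TRAV10D was above TRAV10 in 3 of 4 libraries. The difference between TRAV10N and TRAV10 was 0.14 weighted by reads (exact permutation p = 0.875), 0.45 with at least 2 reads per clone and 0.59 without Tet2/3 DKO replicate 1. Each copy lay above all TCRα rearrangements, of which 85.5% to 86.2% were in frame in the 4 libraries.

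**Figure D5:**
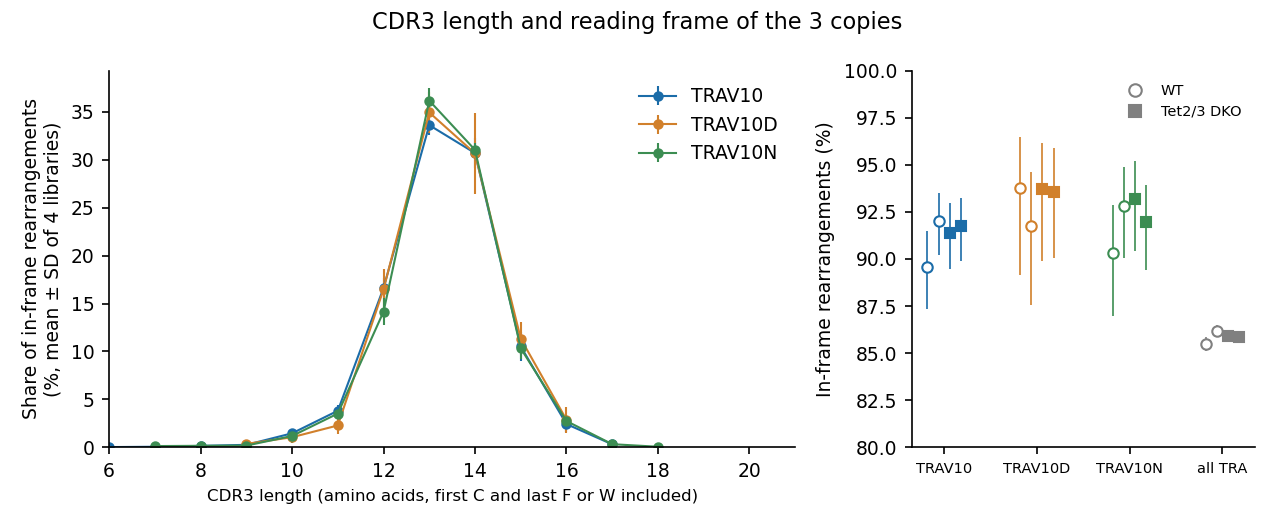
Left, CDR3 length in amino acids against the share of in-frame rearrangements (percent, mean and SD of 4 libraries) for each copy. Right, share of in-frame rearrangements (percent, axis from 80) of each copy and of all TCRα rearrangements, 1 point per library with its 95% Wilson interval. In frame means no shifted frame and no stop codon in the CDR3. The curves peak at 13 amino acids for each copy, and the points of the copies, between 89.6% and 93.8%, overlap and lie above those of all TCRα.

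The joints themselves differed little between copies. In-frame joints held on average 2.38 inserted bases in TRAV10 (SD 0.054), 2.23 in TRAV10D (SD 0.12) and 2.34 in TRAV10N (SD 0.11, n = 4 libraries). The V segment gave 11.75 bases of the CDR3 in TRAV10, 11.98 in TRAV10D and 11.67 in TRAV10N. The 3 copies share the first 12 bases of the CDR3, tgtgcagcaagc, which were kept whole in 64.1% of TRAV10, 68.0% of TRAV10D and 65.2% of TRAV10N in-frame rearrangements. TRAV10D was above TRAV10 in V bases in 4 of 4 libraries, by 0.23 (SD 0.10, exact permutation p = 0.125, 0.188 adjusted), and TRAV10N was below TRAV10D in 4 of 4, with a difference of -0.31 (SD 0.17, exact permutation p = 0.125, 0.188 adjusted). TRAV10D held fewer inserted bases than TRAV10 in 4 of 4 libraries, with a difference of -0.144 (SD 0.12, exact permutation p = 0.125, 0.375 adjusted). The same CDR3 could be divided differently in different copies. A CDR3 joined to TRAJ31 was scored with 0 inserted bases in TRAV10 but with 1 in the largest TRAV10N clone of WT replicate 2. The part of such scoring in the differences between copies was not tested.

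The largest clone of each copy in each library shows how these joints read, and its CDR3 is given in 5 cases, with inserted bases in capitals. They were chosen as the 2 largest clones of TRAV10, the largest of TRAV10N, and the largest of TRAV10D in each genotype.
TRAV10 with TRAJ34, Tet2/3 DKO replicate 2, 867 reads: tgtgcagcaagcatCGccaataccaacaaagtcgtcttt
TRAV10 with TRAJ38, Tet2/3 DKO replicate 1, 90 reads: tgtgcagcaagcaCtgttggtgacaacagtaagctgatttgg
TRAV10N with TRAJ27, Tet2/3 DKO replicate 2, 226 reads: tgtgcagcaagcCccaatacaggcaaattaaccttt
TRAV10D with TRAJ22, Tet2/3 DKO replicate 2, 63 reads: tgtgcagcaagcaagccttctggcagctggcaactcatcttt
TRAV10D with TRAJ31, WT replicate 2, 32 reads: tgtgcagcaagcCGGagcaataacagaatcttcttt
All are in frame. The first 4 were found in no other library, and the TRAV10D joint with TRAJ31 was found in 1 other. The largest TRAV10D clone of Tet2/3 DKO replicate 1, with TRAJ4 and 18 reads, was out of frame.

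Some rearrangements were found in every library. Of 3405 distinct TRAV10 rearrangements, 35 were found in all 4 libraries (1.03%), against 3 of 879 for TRAV10D (0.341%) and 7 of 1659 for TRAV10N (0.422%). The copies differ in how many rearrangements were sampled, and the part of this in the counts was not tested. Those found in all libraries had fewer inserted bases, with none at all in 62.9% of the 35 TRAV10 rearrangements, all in frame. The share was 14.9% of the 2657 in-frame TRAV10 rearrangements found in a single library. The 5 with the highest share in the library where they were rarest are all TRAV10, and their CDR3s are shown because they recur in WT and Tet2/3 DKO libraries.
TRAV10 with TRAJ31, 34, 44, 46 and 42 reads: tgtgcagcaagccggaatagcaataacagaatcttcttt
TRAV10 with TRAJ31, 28, 47, 33 and 34 reads: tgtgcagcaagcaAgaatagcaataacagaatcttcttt
TRAV10 with TRAJ31, 46, 41, 54 and 29 reads: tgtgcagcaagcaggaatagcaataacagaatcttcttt
TRAV10 with TRAJ43, 43, 52, 54 and 24 reads: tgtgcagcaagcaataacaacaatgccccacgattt
TRAV10 with TRAJ31, 25, 18, 34 and 33 reads: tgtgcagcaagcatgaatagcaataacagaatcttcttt
Reads are given in the order WT replicate 1, WT replicate 2, Tet2/3 DKO replicate 1 and Tet2/3 DKO replicate 2. Of the 5, 4 used TRAJ31, and 1 held an inserted base, shown in capitals. The CDR3 listed last was scored with 1 inserted base where it was joined to TRAV10N in WT replicate 2.

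The copies also shared joints with each other. On average 15.8% of the TRAV10D rearrangements of a library had the same J segment and CDR3 as a TRAV10 rearrangement of that library, and 15.2% had one in a different library. For TRAV10N the corresponding shares with TRAV10 were 13.6% and 13.5%. Sharing within a library thus differed from sharing between libraries by less than the range over libraries, which was 10.2% to 21.3% for TRAV10D.

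Last, the J profile of each copy was set beside those of 45 TRAV segments outside the family with at least 1000 rearrangements, by summing over TRAJ segments the smaller of both percent shares (100% for equal profiles), as the mean over 4 libraries. TRAV10 was most like TRAV6-6 (87.3%), TRAV6-5 (85.7%) and TRAV7-5 (85.5%). TRAV10N was most like TRAV14D-3-DV8 (84.5%), TRAV6D-7 (83.0%) and TRAV14D-2 (82.8%), and TRAV10D was most like TRAV14N-3 (81.6%), TRAV14D-1 (81.1%) and TRAV6-6 (81.0%). Within the family the values were lower, 80.5% for TRAV10 and TRAV10D, 75.3% for TRAV10D and TRAV10N and 70.1% for TRAV10 and TRAV10N. Profiles of the same copy in different libraries overlapped by 89.5% for TRAV10, 84.0% for TRAV10N and 80.4% for TRAV10D, in the order of their numbers of rearrangements. The value of TRAV10D and TRAV10 was as high as that of TRAV10D with itself. All profiles of a library share its depth, and the values are a description. Ties of the segments outside the family with other V segments are not given here.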

How the data were processed

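Total RNA of sorted splenic CD4 T cells was used for TCR libraries by a 5′ RACE kit, per the labels, and the authors used fastp 0.21.0 for trimming and MiXCR 4.7.0 for the assembly of clones. For each library the authors deposited a table of TCRα clones with the count of reads per clone and its fraction of TCRα reads. The fraction served as a check of the counts alone. The 4 TCRβ tables were not used. Values between genotypes were compared by exact two-sided permutation tests, and values between copies by exact permutation of the signs over libraries. Reads per V segment and rearrangements per V-J pair were tested over all features with at least 10 with edgeR 4.0.16 (quasi-likelihood, scaled by library totals, Benjamini-Hochberg, threshold 0.05), and with DESeq2 1.42.0 as an alternative. Both kinds of table, 101 V segments and 2274 V-J pairs, were tested on simulated data with 4-fold changes, of which 96.5% and 74.6% were recovered. Of the unchanged features in them, 2.47% and 0.58% were called. TRAJ usage between copies was tested likewise, with the library as a block, a test added after seeing the data. Other alternatives were a minimum of 2 reads, clones with a single best V segment, read weights, TMM, the replicate number as a block, and leaving out each library. The members, segment lists and tests were chosen with earlier results of these data known. Named TRAJ segments are the 3 most used of each copy, named clones the largest of a copy in a library, and named similar segments the 3 with the most alike profile, and TRAJ2, TRAJ4, TRAJ9, TRAJ11, TRAJ16, TRAJ22 and TRAJ43 are named for their test. Sequences of V segments and CDR3s come from the deposited tables, and positions and neighbours of genes from RefSeq for GRCm38.p6, the mm10 build of the submitters' processing notes. Promoters and proteins of these copies were not analysed here.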

Additional observations from a re-analysis of the deposited data

How the results depend on the processing

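Of 237 values under alternative settings for 27 results, 207 were unchanged, among them all 27 for the differences in mean TRAJ number between copies. Unchanged means the same direction and the same side of the threshold. For counts of calls, which have neither, it means an equal or similar count. The exact permutation tests cannot give a p below 0.125 between copies or 0.333 between genotypes. For values tested that way only the direction could change. No TRAV10 copy and no V-J pair of the family passed the threshold between genotypes under any setting run with all 4 libraries. The differences between genotypes that are near 0 had no stable sign, and the cause was not tested. The log2 fold of TRAV10D was 0.017 with DESeq2, 0.13 with distinct rearrangements, 0.12 with each clone counted once and 0.0069 without the 10 most abundant clones, and that of the family was 0.00022 with rearrangements. Weighted by reads, the difference in CDR3 length of TRAV10N was -0.11 amino acids and that in the in-frame share of TRAV10D was -0.79 percentage points, without overlap of the genotypes. With at least 2 reads per clone, the difference in mean TRAJ number of TRAV10D was -1.40. With out-of-frame rearrangements only, the difference in mean TRAJ number of TRAV10D was 2.53, over few rearrangements, and with at least 2 reads per clone TRAV10N minus TRAV10D was 0.0021 amino acids.

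Leaving out 1 library at a time, the log2 fold between genotypes ran from -0.15 to 0.072 for TRAV10, from -0.19 to 0.20 for TRAV10D, from -0.075 to 0.16 for TRAV10N and from -0.063 to 0.041 for the share of the family. The difference in mean TRAJ number ran from -0.54 to 0.034 for TRAV10, from -1.88 to -0.078 for TRAV10D and from -1.10 to -0.21 for TRAV10N, that in CDR3 length from 0.0056 to 0.080 amino acids for TRAV10, from 0.028 to 0.055 for TRAV10D and from 0.020 to 0.048 for TRAV10N, and that in the in-frame share from -0.45 to 1.96 percentage points for TRAV10, from -0.10 to 1.91 for TRAV10D and from -0.24 to 2.26 for TRAV10N. The number of V segments called ran from 0 to 4, with 4 without Tet2/3 DKO replicate 1. The number of TRAJ segments called ran from 18 to 22 for TRAV10N against TRAV10, from 0 to 5 for TRAV10D against TRAV10 (0 without WT replicate 1 or Tet2/3 DKO replicate 2, and 5 without Tet2/3 DKO replicate 1) and from 0 to 2 for TRAV10N against TRAV10D (0 without Tet2/3 DKO replicate 2 and 1 without WT replicate 1). The last 2 comparisons gave 0 calls each with DESeq2 and 1 each with TMM.

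The replicate numbers that WT and Tet2/3 DKO share do not pair the libraries by any label, and the deviations of same-numbered libraries from their group means correlated at 0.126 over 101 V segments. With the replicate number as a block, the log2 fold was -0.04 for TRAV10, -0.0014 for TRAV10D and 0.05 for TRAV10N, and 0 V segments and 0 V-J pairs of the family were called.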
